A study of Mus musculus with 5 samples.

Results

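The 10 genes described here are *Slc12a1*, *Umod*, *Kcnj1*, *Slc12a3*, *Scnn1a*, *Scnn1b*, *Scnn1g*, *Nr3c2*, *Hsd11b2* and *Sgk1*, which handle sodium and potassium in the distal nephron or carry the aldosterone signal there. They were taken by gene symbol from the 24421 symbols counted, and all 10 were among the 13874 genes that passed the filter on low counts. The tissue was kidney cortex, sequenced as 1 RNAseq library from each untreated mouse. The *Fnip1* null group held 3 mice (8637, 9210, 9121) and the wildtype group 2 (9055, 9056), although the study's figure legend gives 3 wildtype mice. All 5 mice were on the C57BL6J background. The null mice carry *Fnip1*-/- in every cell, from a line made by chemical mutagenesis, and the labels give the wildtype mice as *Fnip1*+/+ although the study's text describes heterozygous controls. The labels give neither the age nor the sex of a mouse, and the study's figure legend gives only an age range for the RNAseq mice together. FNIP1 is a partner of folliculin that acts on AMPK and mTOR signalling, and the comparison asks which kidney transcripts differ when it is lost.

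Along the distal nephron, sodium enters the cell through a different apical protein in each segment. The thick ascending limb uses the Na-K-2Cl cotransporter, the distal convoluted tubule uses the Na-Cl cotransporter, and the principal cells of the connecting tubule and collecting duct use the epithelial sodium channel. Aldosterone acts on the last of these through the mineralocorticoid receptor, which also binds glucocorticoids and is shielded from them in these cells by the enzyme HSD11B2.

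The labels were checked first with the targeted gene. *Fnip1* was at 21.0, 16.9 and 16.0 normalized CPM in null mice 8637, 9210 and 9121, and at 51.8 and 48.7 in wildtype mice 9055 and 9056. It fell by 1.48 on the log2 scale (SE 0.136, adjusted p = 0.0313, edgeR's quasi-likelihood test with Benjamini-Hochberg adjustment). Normalized CPM are counts scaled to 1 common library size, and gene counts per mouse ran from 15799114 to 19132145, so that 3 counts in a mouse stand for 0.158 to 0.186 CPM. The 2 wildtype mice differed in a gene of the medulla, the region below the cortex: the urea transporter gene *Slc14a2* was at 81.6 CPM in 9055 and 1.89 in 9056, and at 0.825, 16.1 and 99.8 in null mice 8637, 9210 and 9121. Mouse 9121 also differed from the other 4 in sex-linked genes, with *Xist* at 314.4 CPM against at most 1.41 elsewhere and *Ddx3y* and *Kdm5d* at 0 counts. This is the pattern of a female mouse, and the other 4 had that of a male. Mouse 9121, of the null group, was the highest mouse in *Slc12a1*, *Umod*, *Slc12a3* and *Kcnj1*. The part of sex in these values was not tested.

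All 10 genes had a higher fitted mean in *Fnip1* null than in wildtype kidney, with log2 fold changes from 0.11 to 0.84 and a median of 0.55, where the median over all 13874 genes tested was 0.003. In 8 of the 10 genes every null mouse lay above both wildtype mice, which was the case for 22.9% of all genes tested, and the exceptions were *Slc12a1* and *Umod*. By edgeR's quasi-likelihood test with Benjamini-Hochberg adjustment 0 of the 10 passed an FDR of 5%, so 0 were called at that FDR with a change of at least 2-fold, a rule that called 0.533% of all genes, and 0.404% as higher in null mice. The FDR alone passed 0.735% of all genes. At an unadjusted p under 0.05, 8 of the 10 were higher, as were 13.9% of all genes, with 25.1% in either direction. At the FDR of 5% alone, edgeR's exact test passed 4 of the 10, its likelihood ratio test 4 and DESeq2 6, and the same tests passed 6.18%, 6.81% and 6.43% of all genes in that direction. In these 3 tests 0 of the 10 were also at least 2-fold higher, against 3.06%, 3.44% and 2.74% of all genes. Without null mouse 8637 the quasi-likelihood test passed 7 of the 10 at the FDR alone beside 9.89% of all genes, and without 9121 it passed 1 beside 0.923% (0.649% with 2-fold). These values are averages over whole tissue, in which more cells of a type and more RNA per cell cannot be told apart.

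**Figure D1:**
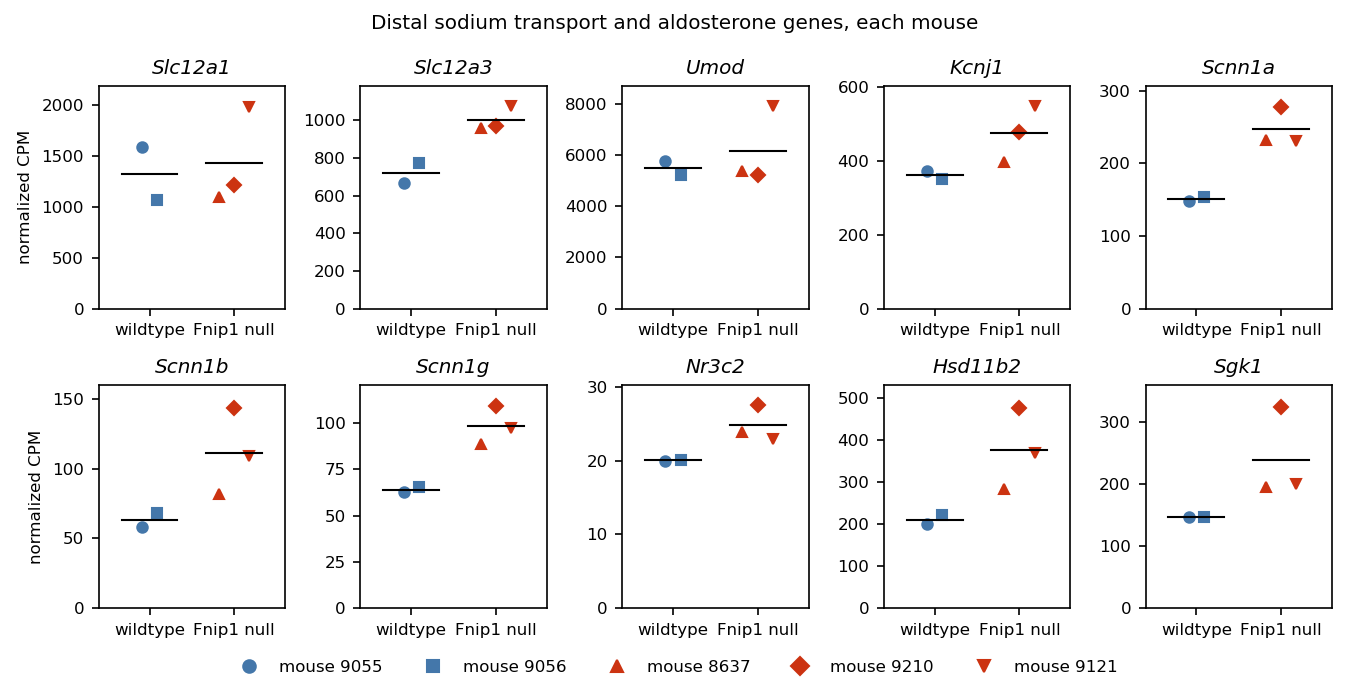
Normalized CPM (y axis, from 0, a separate scale for each gene) of the 10 genes in each wildtype (blue) and *Fnip1* null (red) mouse, with the group mean as a bar and 1 symbol shape for each mouse. The red points lie above both blue points in 8 panels and overlap them for *Slc12a1* and *Umod*.

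The 3 genes of the epithelial sodium channel, whose subunits together form the apical sodium pore of principal cells, were all higher in the null mice. *Scnn1a* (chr6:125320659-125344943), which encodes the alpha subunit, was at 232.7, 277.3 and 230.5 CPM in null mice 8637, 9210 and 9121, and at 148.8 and 154.2 in wildtype mice 9055 and 9056. The groups lay far apart compared with the spread inside each, at 246.9 ± 26.4 CPM (SD, n = 3) against 151.5 ± 3.83 (SD, n = 2). The difference was 1.63-fold with a 95% interval of 1.33 to 1.99, or 0.70 on the log2 scale (SE 0.120, adjusted p = 0.0632, edgeR's quasi-likelihood test), and it stood at rank 190 by p among the genes tested.

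*Scnn1b* and *Scnn1g* encode the beta and gamma subunits and lie near each other on chromosome 7 (chr7:121865038-121918514 and chr7:121734479-121768475). *Scnn1b* was at 81.9, 144.0 and 109.0 CPM in null mice 8637, 9210 and 9121 and at 58.0 and 68.2 in wildtype mice 9055 and 9056. Mouse 9210 was the highest and 8637 the closest to wildtype, and the groups did not overlap. The log2 fold change was 0.82 (SE 0.236, 95% interval 0.26 to 1.39, adjusted p = 0.116, edgeR's quasi-likelihood test). *Scnn1g* was at 88.7, 109.3 and 97.2 CPM in the null mice in the same order and at 62.8 and 65.4 in the wildtype mice, again with 9210 the highest and no overlap. Its log2 fold change was 0.62 (SE 0.112, 95% interval 0.35 to 0.89, adjusted p = 0.0661). Among the 13 alternative fits *Scnn1b* passed both thresholds in 1, that without null mouse 8637, at 1.01 (adjusted p = 0.0135), a fit in which 4.53% of all genes were called as higher and 902 genes in either direction against 74 with all mice.

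The proportions of the subunits within a mouse overlapped between the genotypes. The count of *Scnn1a* was 2.62, 2.54 and 2.37 times that of *Scnn1g* in null mice 8637, 9210 and 9121 and 2.37 and 2.36 times in wildtype mice 9055 and 9056. The log2 difference of this ratio between the genotypes was 0.085 (exact two-sided permutation test, p = 0.3, where 0.1 is the smallest p that 3 against 2 mice allow). *Scnn1b* counts ran from 0.924 to 1.32 times those of *Scnn1g*, with null mouse 9210 the highest and null mouse 8637 the lowest, a difference of 0.18 on the log2 scale (exact permutation p = 0.5).

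*Nr3c2* (chr8:76899442-77245012) encodes the mineralocorticoid receptor, the transcription factor through which aldosterone acts. It was at 23.9, 27.7 and 23.0 CPM in null mice 8637, 9210 and 9121 and at 20.0 and 20.1 in wildtype mice 9055 and 9056. Every null mouse was above the wildtype mice but by a smaller margin than for the channel genes, with a log2 fold change of 0.31 (SE 0.121, 95% interval 0.02 to 0.60, adjusted p = 0.186, edgeR's quasi-likelihood test).

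*Hsd11b2* (chr8:105518755-105523988), whose enzyme inactivates glucocorticoids and so leaves the receptor to aldosterone, had the largest fold change of the 10. It was at 284.1, 476.7 and 367.9 CPM in null mice 8637, 9210 and 9121 and at 198.6 and 220.3 in wildtype mice 9055 and 9056. The lowest null mouse, 8637, was above both wildtype mice, and 9210 was the highest. The means were 376.2 ± 96.6 CPM (SD, n = 3) and 209.5 ± 15.4 (SD, n = 2), a difference of 1.80-fold or 0.84 on the log2 scale (SE 0.222, 95% interval 0.31 to 1.38, adjusted p = 0.105, edgeR's quasi-likelihood test). Without null mouse 8637 it was 1.02 (adjusted p = 0.0114), past both thresholds.

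*Sgk1* (chr10:21882184-21999903), which encodes a kinase that keeps the sodium channel at the cell surface and is induced by corticosteroids, was at 194.2, 323.3 and 199.4 CPM in null mice 8637, 9210 and 9121. It was at 146.8 and 146.5 CPM in the wildtype mice. Mouse 9210 stood above the other null mice, which were close to each other, and the wildtype mice were nearly equal. The log2 fold change was 0.70 (SE 0.238, 95% interval 0.13 to 1.28, adjusted p = 0.147, edgeR's quasi-likelihood test), and it was 0.42 without 9210.

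Because *Sgk1* is the textbook corticosteroid target among the 10, the windows from 250 bases before to 50 bases after the start sites in RefSeq (GRCm38.p6) were searched on both strands for the palindromic response element shared by the mineralocorticoid and glucocorticoid receptors, spelled AGAACA, any 3 bases, TGTTCT. It was found in 3 of 32851 windows (0.00913%), and 1 of these was 1 of the 6 windows of *Sgk1*, chr10:21993640-21993939 on the plus strand, shown 5′ to 3′ with the element in capitals, which ends at position -175 from the start site:

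*Sgk1*: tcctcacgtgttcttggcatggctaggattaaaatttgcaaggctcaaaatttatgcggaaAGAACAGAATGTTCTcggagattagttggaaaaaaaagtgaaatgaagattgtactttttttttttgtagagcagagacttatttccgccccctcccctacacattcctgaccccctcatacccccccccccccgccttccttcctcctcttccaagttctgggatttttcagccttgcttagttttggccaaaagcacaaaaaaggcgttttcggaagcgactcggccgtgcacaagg

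Windows were found for 8 of the 10 genes, all but *Scnn1a* and *Hsd11b2*. Those of *Slc12a1*, *Umod*, *Kcnj1*, *Slc12a3*, *Scnn1b*, *Scnn1g* and *Nr3c2* did not hold the full spelling, and either arm of it (AGAACA or TGTTCT), which 19.0% of all windows hold, was found 2 times in that of *Kcnj1*. The other genes with the full spelling were *Acnat2* and *Gm35041*. *Acnat2* was at 0.01 on the log2 scale (adjusted p = 0.995, edgeR's quasi-likelihood test), and *Gm35041* was not among the genes tested. The windows of the corticosteroid targets *Tsc22d3* and *Per1* did not hold it. A match describes the letters in a window and not binding.

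The 3 signalling genes also differed in their margin over wildtype. *Hsd11b2* counts were 11.9, 17.2 and 16.0 times those of *Nr3c2* in null mice 8637, 9210 and 9121 and 9.93 and 10.9 times in wildtype mice 9055 and 9056. All null mice were above wildtype, by 0.51 on the log2 scale, with an exact two-sided permutation p of 0.2. For *Sgk1* over *Nr3c2* the difference was 0.36 (exact permutation p = 0.2). Over the 8 pairs compared in this way the Benjamini-Hochberg adjusted values ran from 0.64 to 0.9.

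*Slc12a3* (chr8:94329201-94366214) encodes the thiazide-sensitive Na-Cl cotransporter of the distal convoluted tubule. It was at 959.6, 970.3 and 1074 CPM in null mice 8637, 9210 and 9121 and at 666.6 and 771.5 in wildtype mice 9055 and 9056. The null mice were close together and above the wildtype mice, at 1001 ± 63.1 CPM (SD, n = 3) against 719.1 ± 74.2 (SD, n = 2). The difference was 1.39-fold, or 0.48 on the log2 scale (SE 0.137, 95% interval 0.15 to 0.81, adjusted p = 0.117, edgeR's quasi-likelihood test).

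Of the thick limb genes, *Slc12a1* and *Umod* did not separate the genotypes. *Slc12a1* (chr2:125152505-125230002), which encodes the furosemide-sensitive Na-K-2Cl cotransporter, was at 1098, 1212 and 1980 CPM in null mice 8637, 9210 and 9121 and at 1586 and 1066 in wildtype mice 9055 and 9056. The highest values were in 9121 and 9055, 1 mouse of each genotype. The log2 fold change was 0.11 (SE 0.307, 95% interval -0.63 to 0.85, adjusted p = 0.852, edgeR's quasi-likelihood test), and it turned to -0.15 without wildtype mouse 9056 and to -0.20 without null mouse 9121. Mice 9121 and 9055 were also the highest in *Slc14a2*, at 99.8 and 81.6 CPM, and in *Cldn19*, a tight junction gene chosen after its values were seen, which was at 60.8 CPM in 9121, at 42.5 in 9055 and at no more than 32.95 in the other 3 mice. The part of medullary tissue in the *Slc12a1* values was not tested.

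*Umod* (chr7:119462711-119479282, minus strand), which encodes uromodulin, the main protein of normal urine, was at 5381, 5213 and 7918 CPM in null mice 8637, 9210 and 9121 and at 5751 and 5214 in wildtype mice 9055 and 9056. Mouse 9121 stood above the other 4, which overlapped. The log2 fold change was 0.17 (SE 0.247, 95% interval -0.42 to 0.77, adjusted p = 0.696, edgeR's quasi-likelihood test) and was -0.05 without 9121. The intervals of *Slc12a1* and *Umod* leave room for a 1.5-fold difference in level.

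*Kcnj1* (chr9:32372493-32399197) encodes the potassium channel ROMK, which recycles potassium in the thick limb and secretes it in principal cells. It was at 397.6, 478.4 and 548.7 CPM in null mice 8637, 9210 and 9121 and at 372.2 and 350.1 in wildtype mice 9055 and 9056. The null mice were above wildtype, 8637 by the smallest margin, and the log2 fold change was 0.40 (SE 0.159, 95% interval 0.01 to 0.78, adjusted p = 0.191, edgeR's quasi-likelihood test). The count of *Slc12a1* was 2.53 to 3.61 times that of *Kcnj1* in null mice and 3.04 to 4.26 times in wildtype mice, which overlapped, with a log2 difference of -0.30 (exact permutation p = 0.4). *Slc12a1* over *Umod* and *Slc12a3* over *Slc12a1* also overlapped between the genotypes, with log2 differences of -0.06 (exact permutation p = 0.9) and 0.39 (exact permutation p = 0.4).

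**Figure D2:**
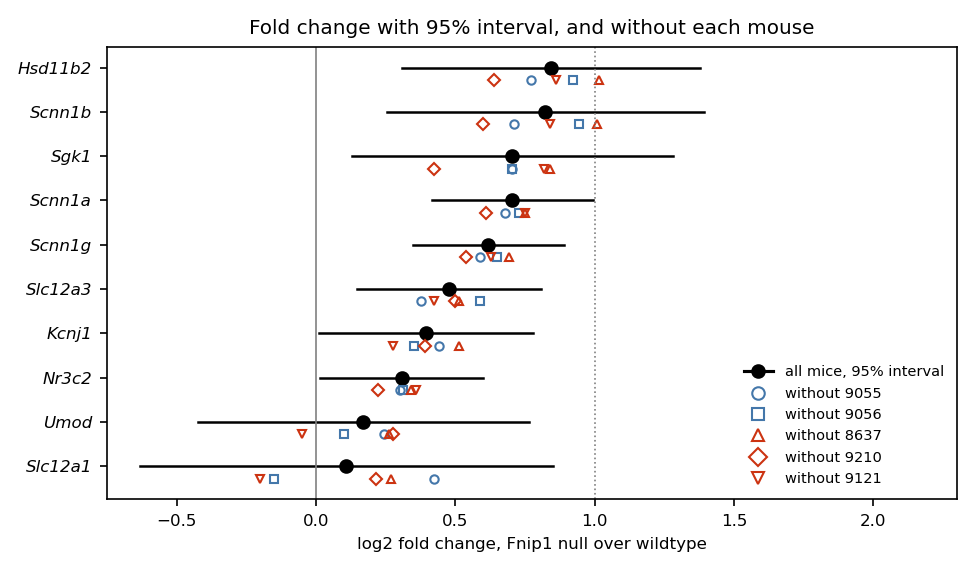
Log2 fold change of each gene, *Fnip1* null over wildtype (x axis), with all 5 mice (black point, 95% interval as a line) and after leaving out each mouse in turn (open symbols, blue for wildtype and red for null). Only *Slc12a1* and *Umod* had estimates below 0, and the open symbols past the dotted line at 2-fold are those of *Scnn1b* and *Hsd11b2* without null mouse 8637.

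Levels were compared between genes as CPM per kilobase of the principal transcript. In wildtype mice *Umod* was the highest at 2090 ± 145 (SD, n = 2), followed by *Slc12a1* at 286 ± 79.2, *Slc12a3* at 218 ± 22.5, *Kcnj1* at 121 ± 5.23, *Hsd11b2* at 114 ± 8.34, *Sgk1* at 59.7 ± 0.0591, *Scnn1a* at 43.3 ± 1.09, *Scnn1b* at 25.5 ± 2.91, *Scnn1g* at 21.4 ± 0.621 and *Nr3c2* at 3.39 ± 0.0154. Neighbours in this order overlapped for *Slc12a1* with *Slc12a3* and for *Kcnj1* with *Hsd11b2*. In null mice *Umod* at 2350 ± 577 (SD, n = 3), *Slc12a1* at 308 ± 103 and *Slc12a3* at 304 ± 19.1 again led, and *Hsd11b2* at 204 ± 52.5 stood before *Kcnj1* at 159 ± 25.3, although their ranges overlapped. *Sgk1* at 97.3 ± 29.8, *Scnn1a* at 70.5 ± 7.55, *Scnn1b* at 45.0 ± 12.6, *Scnn1g* at 32.9 ± 3.47 and *Nr3c2* at 4.20 ± 0.416 kept their wildtype order, with overlap of *Sgk1* with *Scnn1a* and of *Scnn1b* with *Scnn1g*. The 10 genes together took 0.738% to 1.37% of the gene counts of a mouse, most of it *Umod*.

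The other genes of these pathways were read from 7 lists that together hold 52 genes other than the 10. By the edgeR test 1 of the 52 passed an FDR of 5%, the log2 fold changes were positive for 30 and negative for 22, and their median was 0.05. In 15 of the 52 every null mouse was above both wildtype mice and in 10 below, where 22.9% and 23% of all genes tested were.

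The gene that passed was *Hsd11b1*, whose enzyme regenerates active glucocorticoid, the opposite reaction to that of HSD11B2. It was at 55.5, 51.0 and 51.3 CPM in null mice 8637, 9210 and 9121 and at 159.8 and 118.7 in wildtype mice 9055 and 9056, and fell by 1.40 on the log2 scale (SE 0.137, adjusted p = 0.0323, edgeR's quasi-likelihood test). The call was lost without 9210, 9055 or 9056, fits in which 0 genes were called. *Hsd11b2* counts were 5.12, 9.34 and 7.17 times those of *Hsd11b1* in the null mice and 1.24 and 1.86 times in the wildtype mice. This ratio of whole-tissue transcript counts was chosen after seeing the data, from genes that differed in opposite directions. No test was run on it. Of the 8 genes listed as receptor partners, 7 were lower in null mice (median -0.31).

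Among 9 thick limb partners, 8 were higher in null mice and 1 was lower (median 0.30). The lower one was *Cldn10*, which encodes a paracellular channel (log2 fold change -0.47, adjusted p = 0.168 by edgeR). Its counts cover all transcripts of the symbol in whole cortex and not the thick limb alone. Of 7 distal convoluted tubule partners 5 were higher (median 0.21), from *Kcnj16* at -0.07 to the magnesium channel gene *Trpm6* at 0.58 (adjusted p = 0.0872). The kinase pathway that phosphorylates both cotransporters was split, with 6 of 11 genes higher (median 0.03, which turned to -0.03 with a filter of 1 CPM in 3 mice). Its kinase gene *Stk39*, which encodes SPAK, was at 53.0, 62.5 and 67.6 CPM in the null mice and 36.1 and 38.0 in the wildtype mice (0.72, adjusted p = 0.0633), *Wnk2* was lowest at -0.63, and *Wnk4*, *Wnk1* and *Klhl3* were at 0.46, 0.41 and 0.41.

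The regulators of the sodium channel did not share the direction of its subunits, since 3 of 9 were higher and 6 lower (median -0.02, which turned to 0.04 without wildtype mouse 9055 and to 0.14 with scaling by library size alone, where the median of all genes was 0.167). *Nedd4l*, the ubiquitin ligase that removes the channel from the membrane, was at 104.3, 96.9 and 99.0 CPM in null mice 8637, 9210 and 9121 and at 111.6 and 91.1 in wildtype mice 9055 and 9056 (-0.02, adjusted p = 0.934 by edgeR). The protease genes *St14*, *Prss8* and *Furin* were at 0.70, -0.19 and -0.42 on the log2 scale, with adjusted p = 0.130, 0.360 and 0.135. Of the 4 genes of the basolateral sodium pump 3 were higher (median 0.06), and *Fxyd4* was lowest at -0.22.

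Corticosteroid target genes were higher for 8 of 9, with a median of 0.23 and 0 past the FDR of 5%, and 0 were below an unadjusted p of 0.05. *Tsc22d3*, which encodes GILZ, was at 171.8, 169.3 and 77.3 CPM in null mice 8637, 9210 and 9121 and at 118.6 and 103.8 in wildtype mice 9055 and 9056, so that null mice lay on both sides of wildtype. *Per1* was at 98.3, 82.2 and 67.2 CPM in the null mice and 70.6 and 69.1 in the wildtype mice, with the same mouse lowest. *Zbtb16* had the largest fold change of the list, 2.02 (SE 0.850, adjusted p = 0.204), and rested on 8637 at 18.3 CPM, against 6.96 and 2.32 in the other null mice and 2.80 and 1.72 in wildtype mice. *Sgk1* did not have this order, since its highest mouse was 9210.

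**Figure D3:**
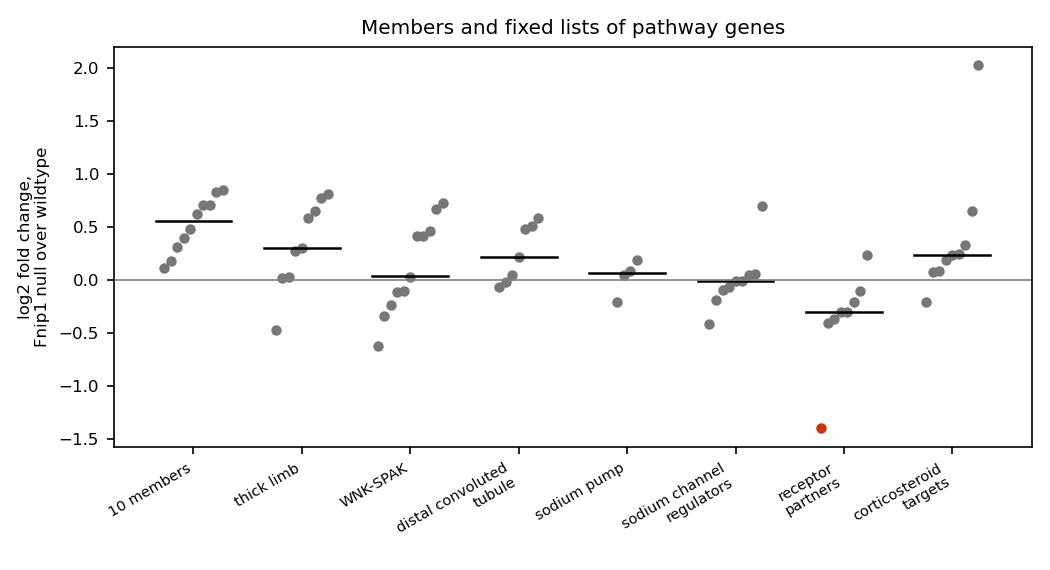
Log2 fold change, *Fnip1* null over wildtype (y axis), of the 10 genes and of each gene in the 7 pathway lists (points), with the list median as a bar. All 10 genes lie above 0, the lists lie on both sides of it, and 1 point is red for passing an FDR of 5% (*Hsd11b1*, among the receptor partners).

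The summed markers of principal cells, intercalated cells, podocytes and proximal tubule also separated the genotypes. *Aqp2*, the water channel of principal cells, the cells that carry the sodium channel, was at 175.6, 231.4 and 256.0 CPM in null mice 8637, 9210 and 9121 and at 133.0 and 127.6 in wildtype mice 9055 and 9056 (log2 fold change 0.76, adjusted p = 0.0837, edgeR's quasi-likelihood test). Of 5 principal cell markers 3 were higher and 2 lower. *Aqp3* was at 0.23 on the log2 scale, *Elf5* at -0.29 and *Avpr2* at -0.47, with *Avpr2* lower in every null mouse. The summed level of the 5 was 610.4 to 887.4 CPM in null and 481.5 to 497.5 in wildtype mice. *Hsd11b2* is itself 1 of the 5. It held 476.7 of the 887.4 CPM in null mouse 9210 and 198.6 of the 481.5 in wildtype mouse 9055. All 6 intercalated cell markers were higher (median 1.002), their sum was 663.2 to 1038 CPM against 446.4 to 492.8, and *Atp6v0d2* passed both thresholds at 1.31 (adjusted p = 0.0496). All 5 podocyte markers were higher (median 0.90), with sums of 658.9 to 773.2 against 367.1 to 370.4 CPM, and *Nphs1*, which encodes nephrin of the filtration slit, passed both thresholds at 1.077 (adjusted p = 0.0334). Both calls were lost without 9210, 9055 or 9056, as was that of *Fnip1*, and the call of *Atp6v0d2* also with RLE size factors (adjusted p = 0.05) and with the non-legacy test (adjusted p = 0.0506). Of 7 proximal tubule markers 5 were lower (median -0.33), with sums of 6777 to 9711 CPM in null and 10610 to 11630 in wildtype mice.

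Markers of cells outside the tubule were also read beside these values. The 5 adipocyte markers, of which 3 passed the filter on low counts, together were at 68.4 CPM in null mouse 9210, the highest mouse in *Scnn1b*, *Hsd11b2* and *Sgk1*, 28.2 in 9121 and 2.36 in 8637, against 2.36 and 4.58 in wildtype mice 9055 and 9056. Of 6 leukocyte markers tested 5 were higher in null mice (median 1.23), and in *Ptprc*, *Cd68*, *Itgax* and *Itgam*, named after their values were seen, every null mouse was above both wildtype mice, with log2 fold changes from 1.03 to 1.54 and adjusted p from 0.0622 to 0.128 by edgeR. The summed level of the leukocyte list overlapped (60.8 to 102.9 CPM in null and 78.7 to 88.6 in wildtype mice), and most of it was *Csf1r*, which was lower in every null mouse (log2 fold change -0.61, adjusted p = 0.192). The sums also overlapped for 10 clock genes (1081 to 1404 and 1211 to 1253), and those of the immediate early genes, which respond fast to handling of tissue, did not (82.1 to 127.3 and 48.0 to 63.5). Their part in the levels of the 10 genes was not tested.

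Measured against *Aqp2* counts of the same mouse, a comparison chosen after seeing the data, the collecting duct genes overlapped between the genotypes. *Scnn1a* counts were 1.33, 1.2 and 0.9 times those of *Aqp2* in null mice 8637, 9210 and 9121 and 1.12 and 1.21 times in wildtype mice 9055 and 9056. The ratios also overlapped for *Scnn1b* (0.426 to 0.622 in null and 0.436 to 0.534 in wildtype mice), *Scnn1g* (0.380 to 0.505 and 0.472 to 0.512), *Hsd11b2* (1.44 to 2.06 and 1.49 to 1.73) and *Sgk1* (0.779 to 1.40 and 1.10 to 1.15). *Nr3c2*, which is expressed beyond principal cells, was lower against *Aqp2* in every null mouse, at 0.136, 0.119 and 0.0899 against 0.150 and 0.158. No test was run on these ratios, and the part of cell composition in the higher levels of the channel genes was not tested.

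**Figure D4:**
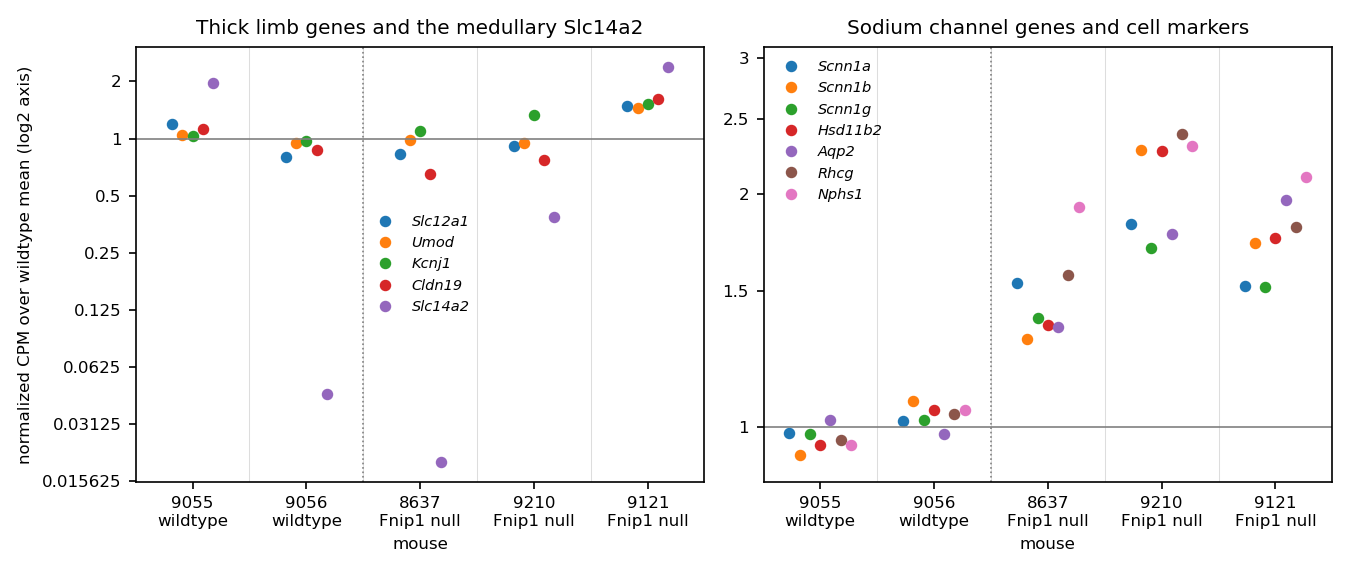
Normalized CPM over the wildtype mean (y axis, log2 scale) in each mouse (x axis), for thick limb genes with the medullary *Slc14a2* (left) and for sodium channel genes with the markers *Aqp2*, *Rhcg* and *Nphs1* (right). On the left 9055 and 9121 are the highest in *Slc12a1*, *Cldn19* and *Slc14a2*, and on the right the null mice lie above the wildtype mice for each gene.

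Across the 5 mice the 10 genes fell into groups with like patterns, given as Pearson's r of log2 (CPM + 1), which also reflects the genotype difference that most of them share. *Scnn1b* was most like *Hsd11b2* (r = 0.997), *Scnn1a* like *Scnn1g* (r = 0.989), *Nr3c2* like *Sgk1* (r = 0.981) and *Slc12a1* like *Umod* (r = 0.904). Of 9630 genes with a mean of at least 10 CPM, the likest was *Trpv5*, the calcium channel of the distal convoluted and connecting tubule, for *Scnn1a* (r = 0.9995), *Hepacam2* for *Hsd11b2* (r = 0.9996), *Tmem117* for *Scnn1b* (r = 0.9986), *Tex10* for *Scnn1g* (r = 0.9995), *Hmx2* for *Sgk1* (r = 0.999) and *Rrm2* for *Nr3c2* (r = 0.9983). For *Slc12a3* it was *Fam213b* (r = 0.9977), for *Kcnj1* *Psme1* (r = 0.9988), for *Umod* *Frg1* (r = 0.9987) and for *Slc12a1* *Rab11b* (r = 0.9961). *Trpv5* was at 44.8, 59.1 and 44.0 CPM in null mice 8637, 9210 and 9121 and at 19.7 and 21.5 in wildtype mice 9055 and 9056, and rose by 1.26 on the log2 scale (SE 0.161, adjusted p = 0.0395, edgeR's quasi-likelihood test), a call that was lost with the others without 9210, 9055 or 9056, where 0 genes were called. With 5 mice and this many genes, 14 to 112 genes had an r above 0.98 with each of the 10.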

How the data were processed

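Total RNA from flash frozen cortical kidney tissue was sequenced by the authors as paired-end libraries, aligned to mm10 with TopHat2 2.1.0 and counted per gene symbol with HTSeq 0.6.1 (versions from the submitters' processing notes). The deposited values are raw counts, without normalization. Rows that name no gene held 39.0% to 42.8% of each file's total and were left out. Each pair of libraries differed by more than the sampling noise. By Pearson's r of log2 (CPM + 1), null mouse 8637 was as near to wildtype mouse 9055 (0.9883) as to null mouse 9210 (0.9872). It was further from null mouse 9121 (0.9741).

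The software was edgeR 4.0.16 and limma 3.58.1 under R 4.3.3. Genes with under 10 counts in more than 2 of the 5 libraries were dropped, and 13874 genes remained. TMM factors (0.914 to 1.09) scaled the libraries, the genotypes were compared with the quasi-likelihood test at its defaults, and p-values were adjusted by Benjamini-Hochberg over all genes tested. Called genes passed 5% FDR and differed at least 2-fold. The SE came from the fold change and its F statistic. Ratios of counts within a mouse were compared by exact two-sided permutation. The scripts were tested on simulated data. The quasi-likelihood p-values set the genotype difference against a spread between mice that is estimated in part from other genes. The permutation p-values place a difference among all regroupings of the mice. Precision is limited by the number of mice. Gene coordinates were looked up by symbol in GENCODE M21 (GRCm38, the assembly called mm10 by UCSC).

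The 10 genes and the lists were chosen with earlier results of these data known. Named besides them are *Fnip1*, up to 4 genes of a list (those past the FDR, else the extremes, else genes known to act with the 10), and the likest gene by r. Also named are the other genes whose windows hold the full response element. *Cldn19*, *Rhcg* and 4 leukocyte markers were chosen after their values were seen, and some genes of the lists are not reported here by name. Alternatives were the FDR threshold with no fold threshold, DESeq2 1.42.0, the likelihood ratio and exact tests of edgeR, other normalizations and filters, and leaving out each mouse. Chosen after seeing the data were counts of the 10 genes past the FDR alone in each alternative, the non-legacy quasi-likelihood test and levels relative to *Aqp2*. The ratio of *Hsd11b2* to *Hsd11b1* was also chosen then.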

Additional observations from a re-analysis of the deposited data

How the results depend on the processing

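The number of genes called at an FDR of 5% and 2-fold, 74 with all mice, was 628 with the likelihood ratio test, 570 with the exact test, 487 with DESeq2 and 145 with no filter, and ran from 0 to 902 when 1 mouse was left out. It was 0 without 9210, 9055 or 9056, 137 without 9121 and 902 without 8637. Of the 10 distal genes, 0 were called in each alternative with all mice, and from 0 to 2 when 1 mouse was left out (*Scnn1b* and *Hsd11b2* without 8637). At the FDR alone, 7 passed without 8637, 1 without 9121 (*Scnn1a*, adjusted p = 0.0496) and 0 without each other mouse. The 8 genes other than *Slc12a1* and *Umod* stayed above 0 in all 13 alternative fits, and the highest adjusted p of *Scnn1a* was 0.535, without 9056. When 1 mouse was left out, the direction turned for *Slc12a1* (-0.149 without 9056, -0.199 without 9121, highest 0.424), *Umod* (-0.05 without 9121, highest 0.278), *Slc12a1* over *Umod* (0.0221 without 8637, 0.158 without 9055, lowest -0.274) and *Scnn1a* over *Scnn1b* (0.000104 without 9055, 0.0247 without 9210, lowest -0.256). Relative to *Aqp2*, it turned for *Scnn1a* (-0.046), *Scnn1g* (-0.131), *Sgk1* (-0.082) and *Nr3c2* (-0.442). Scaling by library size alone moved the median of all genes to 0.167. The cause of these changes was not tested. Leaving out a wildtype mouse leaves 1, which is then assumed to vary like the null mice. The legacy quasi-likelihood mode is the default of this edgeR version and gives no other value. No paired analysis was possible because the mice carry no shared replicate numbers.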
